A study of Homo sapiens with 12 samples.

Results

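The genes described here are the 7 cyclin-dependent kinase (CDK) inhibitors of the human genome, CDKN1A, CDKN1B, CDKN1C, CDKN2A, CDKN2B, CDKN2C and CDKN2D. They were taken by gene name, and all 7 were among the 58735 genes of the tables. RNA-seq was performed on HLE-B3 cells, a human lens epithelial cell line, with 3 libraries in each of 4 groups and 12 libraries in all. WT cells and Atg7KO cells, in which CRISPR/Cas9 had been directed at ATG7, were collected untreated at 0 h or after 12 h with 200 µM H2O2. ATG7 encodes the enzyme that activates the ubiquitin-like proteins of autophagosome formation. Because the untreated cells were collected at 0 h, the effect of H2O2 and that of 12 h in culture cannot be told apart. The labels do not say which knockout clone or clones were sequenced, or whether replicates were separate cultures, so the p-values measure only the spread between these libraries.

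CDK inhibitors bind cyclin-CDK complexes or their kinase subunits and restrain the cell cycle. The Cip/Kip members (CDKN1A, which encodes p21; CDKN1B, p27; CDKN1C, p57) bind complexes of cyclins with CDKs, and those containing CDK2 are their best known targets. The INK4 members (CDKN2A, which encodes p16INK4a; CDKN2B, p15; CDKN2C, p18; CDKN2D, p19) bind CDK4 and CDK6 and keep D-type cyclins from activating them. CDKN1A is a classic transcriptional target of p53, CDKN2A is a widely used marker of senescence, and CDKN2A also encodes ARF, which binds MDM2, from a separate promoter and another reading frame. In the lens, CDKN1B and CDKN1C are known for the withdrawal of cells from the cycle as fibre cells form. HLE-B3 cells carry SV40 large T antigen, which binds RB and p53, and this limits the line as a model of the pathway.

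Depth was even, from 15602183 to 17659496 counts per library. Replicates of a group correlated at a mean r of 0.991 in 3 groups, whereas untreated Atg7KO replicate 1 had a mean r of 0.974 with the others of its group. The spread (biological coefficient of variation) was 0.161 and 0.162 in the comparisons of 2 groups that used the untreated Atg7KO libraries and 0.0416 and 0.047 in those that did not. For the members and named pathway genes, results that rest on that library are given with and without it where its omission changed a call or moved a called value by over 1.5 times. ATG7 mRNA was not lower in the libraries labelled Atg7KO (mean of 3.55 FPKM, fragments scaled by gene length and library size, against 2.55 in untreated WT, and 2.19 against 1.96 at 12 h), so the mRNA level does not check the label. The paper reports that loss of ATG7 was checked in picked clones by western blot. Of 8 lens epithelial markers, PAX6 and CRYAB exceeded 1 FPKM in a library and SOX2 was at 0 in all. CRYAB had means of 1.65 FPKM in treated WT and 0.940 in treated Atg7KO, against 0.172 and 0.0119 untreated. FOXE3, CRYAA, CDH1, PROX1 and MAF were near 0. The summed level of the 8 lay between 0.615 and 2.96 FPKM. Of 6 fibroblast markers, COL1A1, COL1A2 and PDGFRB exceeded 1 FPKM, and COL3A1 and DCN were near 0. LUM exceeded 1 FPKM only in Atg7KO (means of 9.52 untreated and 3.93 treated, against 0.168 and 0.129 in WT). The 6 summed to 623–655 FPKM in untreated WT, 270–287 in treated WT, 360–512 in untreated Atg7KO and 247–257 in treated Atg7KO. Nearly all of each sum was COL1A1 (mean of 625.5 FPKM in untreated WT). These summed levels moved with H2O2 beside every response given here, and their part in those responses was not tested. In bulk RNA, fewer cells of a kind and less RNA per cell cannot be told apart.

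Promoter sequences were at hand for 6 of the 7 genes (RefSeq, GRCh38.p14). CDKN1C was not among them. Each window held 300 bases, from 250 before to 50 after the annotated start. The windows are written 5′ to 3′ along the strand of the gene, with GC boxes (GGGCGG, or CCGCCC on the other strand) and CCAAT boxes (CCAAT or ATTGG) in capitals. The windows of CDKN1A and CDKN2B are shown because these genes rose with H2O2 in both lines:
CDKN1A, chr6:36678464-36678763, plus strand: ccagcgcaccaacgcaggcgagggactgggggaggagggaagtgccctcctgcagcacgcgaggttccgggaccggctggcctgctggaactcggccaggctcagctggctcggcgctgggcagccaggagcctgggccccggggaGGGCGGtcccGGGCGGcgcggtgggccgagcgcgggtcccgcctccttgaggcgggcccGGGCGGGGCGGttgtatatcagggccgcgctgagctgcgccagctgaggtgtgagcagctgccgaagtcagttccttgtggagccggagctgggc
CDKN2B, chr9:22009256-22009555, minus strand: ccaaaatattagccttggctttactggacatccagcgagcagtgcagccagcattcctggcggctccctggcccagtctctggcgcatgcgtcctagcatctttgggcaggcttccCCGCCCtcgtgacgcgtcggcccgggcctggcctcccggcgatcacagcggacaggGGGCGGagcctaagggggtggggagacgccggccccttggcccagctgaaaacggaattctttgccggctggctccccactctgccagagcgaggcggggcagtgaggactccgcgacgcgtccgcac

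CDKN1B and CDKN2C, which fell in both lines, are shown for contrast. CDKN2C had 3 annotated starts, and the window with the highest GC content (71.3%) is the one printed:
CDKN1B, chr12:12717118-12717417, plus strand: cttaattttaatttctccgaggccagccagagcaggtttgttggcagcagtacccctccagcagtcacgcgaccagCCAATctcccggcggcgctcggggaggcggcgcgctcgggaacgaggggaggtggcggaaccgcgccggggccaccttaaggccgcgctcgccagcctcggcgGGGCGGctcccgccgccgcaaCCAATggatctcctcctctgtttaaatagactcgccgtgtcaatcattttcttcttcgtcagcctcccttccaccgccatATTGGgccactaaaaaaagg
CDKN2C, chr1:50968456-50968755, plus strand: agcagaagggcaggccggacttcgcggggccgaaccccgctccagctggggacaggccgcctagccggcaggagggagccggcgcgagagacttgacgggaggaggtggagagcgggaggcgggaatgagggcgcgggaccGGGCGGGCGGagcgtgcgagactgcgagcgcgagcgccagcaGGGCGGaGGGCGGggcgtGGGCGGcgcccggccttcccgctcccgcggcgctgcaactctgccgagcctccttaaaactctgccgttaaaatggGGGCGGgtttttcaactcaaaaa

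CDKN2A is shown at both of its starts, because its counts add up the transcripts of both. The upstream start (ARF) lies within the window listed first and the downstream start (INK4a) within the second:
CDKN2A upstream start, chr9:21995275-21995574, minus strand: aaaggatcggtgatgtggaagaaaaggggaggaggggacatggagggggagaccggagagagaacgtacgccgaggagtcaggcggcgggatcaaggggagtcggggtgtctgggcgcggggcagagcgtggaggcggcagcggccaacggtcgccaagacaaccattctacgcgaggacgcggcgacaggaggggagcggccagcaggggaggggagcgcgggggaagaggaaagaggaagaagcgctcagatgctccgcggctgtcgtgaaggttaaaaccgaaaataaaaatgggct
CDKN2A downstream start, chr9:21974808-21975107, minus strand: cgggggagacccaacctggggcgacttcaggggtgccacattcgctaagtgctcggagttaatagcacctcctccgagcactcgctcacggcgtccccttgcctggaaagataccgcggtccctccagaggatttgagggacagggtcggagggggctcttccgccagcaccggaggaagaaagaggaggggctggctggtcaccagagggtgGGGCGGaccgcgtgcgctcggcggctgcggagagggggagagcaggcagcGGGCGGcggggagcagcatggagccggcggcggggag

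Counting the start as position 1, GC boxes began at positions -104, -94, -45 and -40 of CDKN1A, the last pair sharing 1 base. CDKN2B had 2 GC boxes and the CDKN2C window had 6, of which 1 pair overlapped. CDKN2D, which is not printed, had 3. The downstream CDKN2A window had 2 and the upstream one had none. CDKN1B had 1 GC box and 3 CCAAT boxes, at -174, -50 and 31. A GC box occurred in 45% and a CCAAT box in 34.6% of the 35116 promoter windows of the same length. On both strands, TATAAA (11.5% of all windows), TGANTCA (7.71%) and GTAAACA (3.42%) had no match in any window of the 6 genes. CACGTG (7.26%) occurred in the other 2 CDKN2C windows, TGACNNNGC (13.3%) in CDKN1B, and GCGGGAA (6.55%) at 2 places of the printed CDKN2C window. Genes that rose and genes that fell both held GC boxes. Besides CDKN1B, a CCAAT box occurred in CDKN2D (-234) and in a CDKN2C window that is not printed (-95). No window of CDKN1A, CDKN2A or CDKN2B held one. The part of these letters in the responses was not tested.

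The level of the whole group is given first, in FPKM, which allows comparison between genes. In untreated WT cells CDKN2A was the most abundant member (95.3 ± 0.546 FPKM, SD, n = 3), followed by CDKN1A (49.5 ± 1.05), CDKN2C (35.6 ± 1.56), CDKN1B (13.8 ± 0.230), CDKN2B (11.3 ± 0.338), CDKN2D (9.25 ± 0.997) and CDKN1C (0.0150 ± 0.0130). The ranges of neighbouring genes in this order did not overlap. The closest pair was CDKN2B (lowest library 10.96 FPKM) and CDKN2D (highest library 10.34 FPKM). After H2O2 the order was headed by CDKN1A (1550 ± 114 FPKM, n = 3), with CDKN2A (134 ± 1.84) next and CDKN2B (24.7 ± 0.785) above CDKN2C (18.4 ± 0.979). Untreated Atg7KO cells had the same 3 leading genes, with CDKN2A at 111 ± 39.3, CDKN1A at 47.8 ± 2.81 and CDKN2C at 33.8 ± 5.61 FPKM. There, CDKN2B (7.01 ± 0.101) and CDKN2D (8.30 ± 1.70) overlapped between libraries.

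The summed FPKM of the 7 genes went from 215 ± 2.16 to 1746 ± 115 in WT and from 222 ± 51.0 to 1822 ± 28.8 in Atg7KO. Nearly all of that increase was CDKN1A. It made up 23.1% ± 0.583 of the sum in untreated WT and 88.7% ± 0.693 after H2O2, and 22.1% ± 3.38 and then 92.7% ± 0.0902 in Atg7KO (SD, n = 3 each). The share of CDKN2A went the other way, from 44.4% to 7.71% in WT and from 49.1% to 4.53% in Atg7KO. Without CDKN1A, the other 6 genes summed to 165 ± 2.57 FPKM in untreated and 196 ± 0.636 in treated WT cells, and to 174 ± 48.2 and 132 ± 3.39 in Atg7KO cells. In untreated Atg7KO replicate 1 that last sum was 230, and 143 was the lowest in the group.

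**Figure D1:**
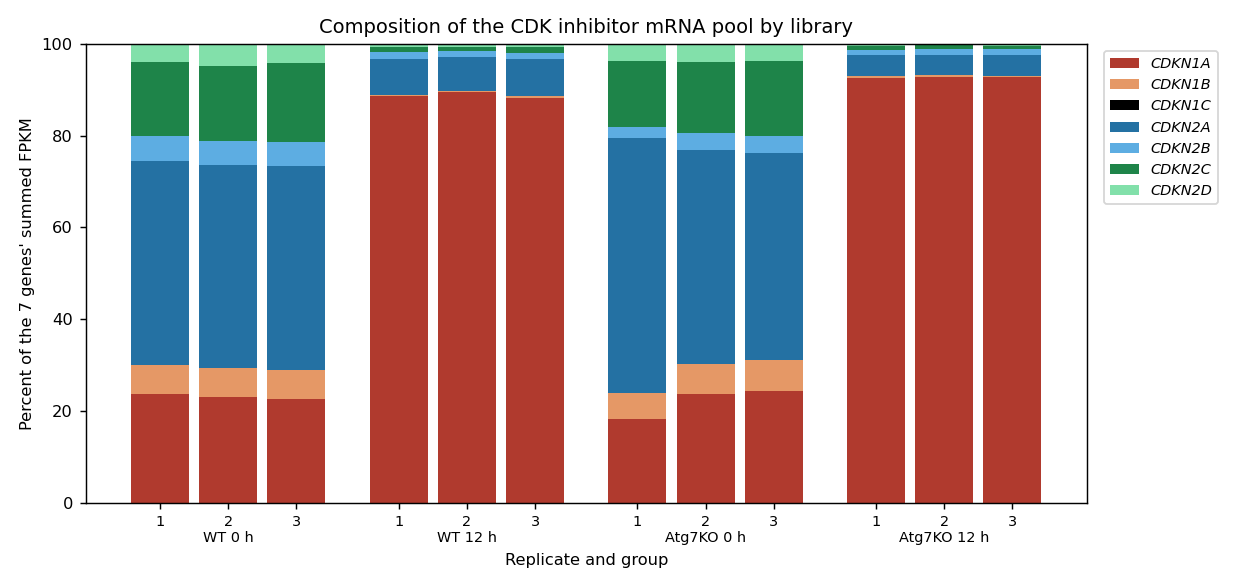
Percent of the summed FPKM of the 7 genes (vertical axis) contributed by each gene in each of the 12 libraries, 1 bar per library. CDKN1A fills 18.2–24.3% of the untreated bars and 88.2–92.8% of the treated ones.

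The first comparison asked how H2O2 changed each gene in either line. CDKN1C is left out of the counts that follow, because it cleared the filter on low counts only through treated WT, where it is high. In WT cells CDKN1A, CDKN2B and CDKN2A rose and CDKN1B and CDKN2C fell, so 5 of the other 6 passed at an adjusted p under 0.01 by edgeR's quasi-likelihood test, where 61% of the 15913 genes tested passed (30.9% higher and 30.1% lower). In Atg7KO cells CDKN1A and CDKN2B rose and CDKN1B and CDKN2C fell, which is 4 of 6 against 26% of 15475 genes (13.6% higher and 12.4% lower). Without untreated Atg7KO replicate 1 it was 5 of 6, with CDKN2A also lower, where 9341 of 16002 genes passed. The median log2 fold change of these 6 genes was 0.39 in WT and -0.44 in Atg7KO, or -0.20 without that replicate, beside -0.0053 and -0.032 over all genes tested. With a fold of at least 2 and a mean above 1 FPKM in 1 of the groups also required, 3 members passed in WT (12.5% of all genes tested) and 4 in Atg7KO (11.2%).

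**Figure D2:**
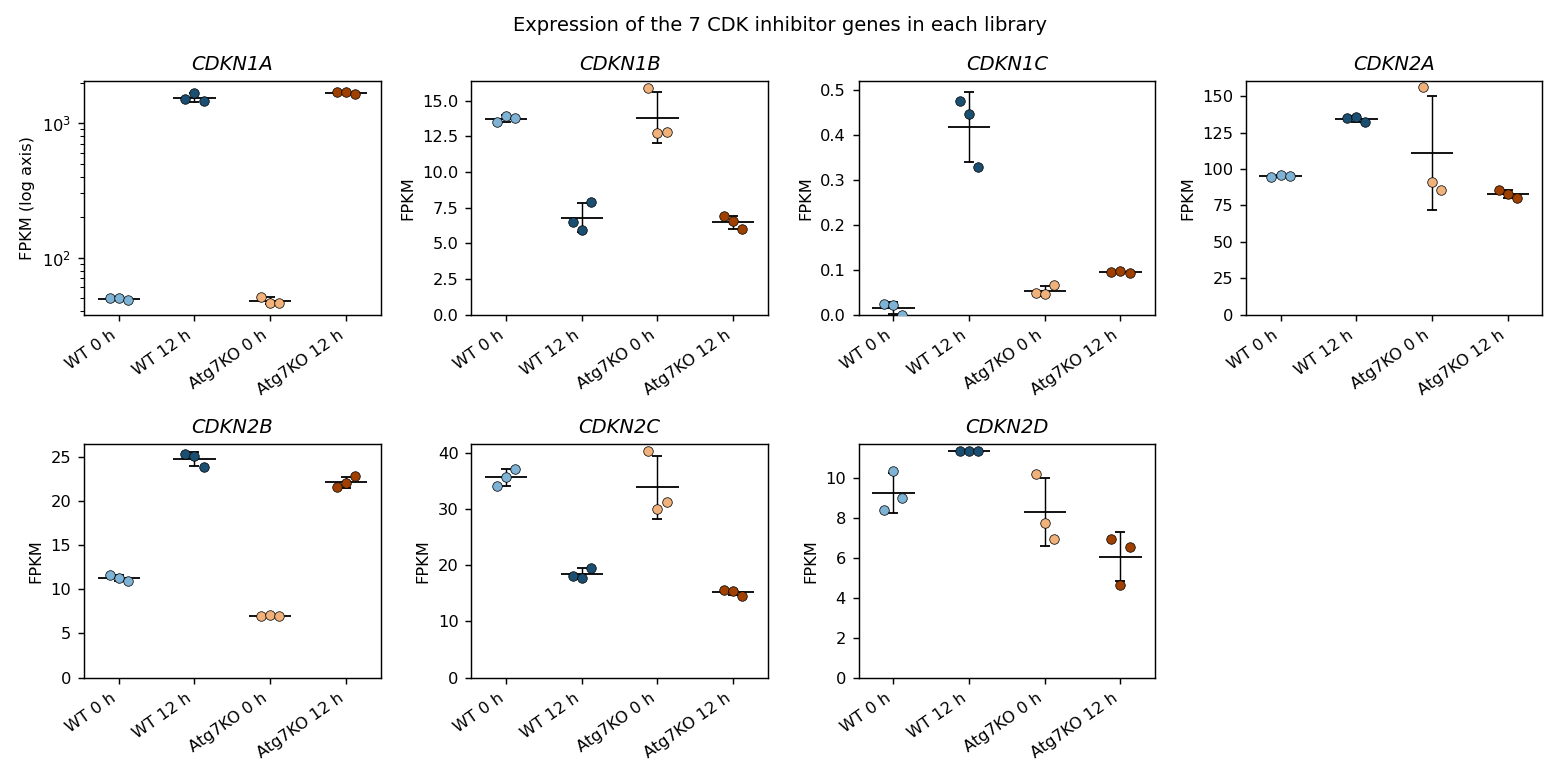
FPKM (vertical axes, log scale for CDKN1A and linear from 0 for the others) of each gene in the 4 groups. Points are libraries, horizontal lines are means and bars are SD (n = 3). CDKN1A lay between 46.1 and 51.1 FPKM in untreated and between 1453 and 1713 in treated libraries.

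CDKN1A, on chromosome 6 (36676460–36687339, plus strand, GRCh38), was read at 50.3, 49.9 and 48.3 FPKM in the untreated WT libraries and at 1521, 1676 and 1453 after H2O2. In Atg7KO cells it was at 51.1, 46.3 and 46.1 FPKM before and 1713, 1694 and 1662 after. No treated library came near an untreated one, and the treated libraries placed CDKN1A between rank 9 and rank 12 of all genes by FPKM, against ranks 693 to 895 without H2O2. Its reads made up 0.0147–0.0160% of a library before and 0.442–0.517% after. The rise was 31.2-fold in WT (log2 fold change of 4.96 ± 0.0492, SE, edgeR's quasi-likelihood adjusted p = 1.46e-49) and 35.2-fold in Atg7KO (5.14 ± 0.120, adjusted p = 2.58e-06). The difference between both responses, 0.17, did not pass by edgeR (adjusted p = 0.247, 95% interval -0.06 to 0.41). Without untreated Atg7KO replicate 1 it was 0.23 and passed (edgeR adjusted p = 0.000395). DINOL, an RNA read from the opposite strand whose gene (36677609–36678559) reaches into the CDKN1A promoter window shown above, had 0 to 32 counts per library. Its mean went from 0.0773 to 1.53 FPKM in WT and from 0.0409 to 1.51 in Atg7KO. The strand setting of the counting is not given in the sources used here, so reads of the shared stretch cannot be told apart.

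CDKN1B, on chromosome 12 (12715058–12722371, plus strand), encodes the inhibitor typical of resting cells. It was at 13.5, 13.9 and 13.8 FPKM in untreated WT and at 6.52, 5.96 and 7.92 after H2O2. The Atg7KO libraries had 15.9, 12.7 and 12.8 FPKM before and 6.92, 6.56 and 6.01 after. All treated libraries lay below all untreated ones. The fall was -1.02 ± 0.0830 on the log2 scale in WT (edgeR adjusted p = 4.56e-15) and -1.09 ± 0.122 in Atg7KO (adjusted p = 0.000586; -0.99 without untreated replicate 1), and the responses differed by -0.07 (adjusted p = 0.763, 95% interval -0.43 to 0.28). The ratio of CDKN1A to CDKN1B in FPKM thereby went from 3.60 ± 0.115 to 233 ± 48.8 in WT and from 3.48 ± 0.230 to 261 ± 14.7 in Atg7KO (SD, n = 3).

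CDKN1C, on chromosome 11 (2883213–2885773, minus strand), an imprinted gene, was close to the limit of detection. It had 1, 1 and 0 counts in untreated WT libraries, the 0 allowing up to 0.173 CPM (counts scaled to library size; 3 counts of 17290405, counting error only). After H2O2 it had 20, 17 and 14 counts (0.476, 0.446 and 0.329 FPKM). The untreated Atg7KO libraries had 2, 2 and 3 counts and the treated ones 4 each. In WT the summed count per read was 26.4 times higher after H2O2 (exact 95% interval 6.95 to 224, counting error only), and in Atg7KO 1.71 times (0.621 to 5.13). The gene entered the edgeR fits only through treated WT, so its calls there support nothing and are not given. In the Atg7KO response it was left out by the filter on low counts.

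The INK4 genes moved in both directions. CDKN2B, on chromosome 9 (22002903–22009363, minus strand), is known as a target of TGF-β signalling. It was at 11.6, 11.3 and 11.0 FPKM in untreated WT and at 25.3, 25.1 and 23.8 after H2O2. In Atg7KO it was at 6.96, 7.12 and 6.93 before and at 21.6, 22.0 and 22.8 after. No groups overlapped. The rise was 2.18-fold in WT (log2 fold change of 1.13 ± 0.0555, edgeR adjusted p = 5.31e-23) and 3.14-fold in Atg7KO (1.65 ± 0.0836, adjusted p = 2.78e-05). The responses differed by 0.53 ± 0.0906 (edgeR interaction, adjusted p = 0.00137), and 0.53 without untreated Atg7KO replicate 1 (adjusted p = 1.10e-07). Of the 6 members without CDKN1C, CDKN2B alone passed this test of the difference, where 14% of 16856 genes passed. Without that replicate 4 of 6 did (CDKN1A, CDKN2A, CDKN2B and CDKN2D), where 5974 of 17543 genes passed.

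CDKN2C, on chromosome 1 (50960745–50974633, plus strand), had 34.0, 35.7 and 37.1 FPKM in untreated WT and 18, 17.7 and 19.5 after H2O2. In Atg7KO it had 40.3, 30.0 and 31.2 before and 15.5, 15.4 and 14.6 after. Treated and untreated libraries did not overlap. The log2 fold change was -0.95 ± 0.0543 in WT (edgeR adjusted p = 1.17e-20) and -1.16 ± 0.128 in Atg7KO (adjusted p = 0.000534), or -1.03 without untreated Atg7KO replicate 1 (adjusted p = 1.14e-56). The difference of the responses was -0.21 (adjusted p = 0.288, 95% interval -0.52 to 0.10).

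CDKN2A, on chromosome 9 (21967753–21995301, minus strand), had 14 transcripts in GENCODE 29, and its counts cannot separate p16INK4a from ARF. In WT it was at 94.7, 95.7 and 95.5 FPKM before and 134.7, 136.0 and 132.4 after H2O2, a rise of 0.49 ± 0.0401 on the log2 scale (edgeR adjusted p = 4.55e-15). In Atg7KO it was at 156.1, 90.9 and 85.5 FPKM before and 85.3, 82.7 and 79.9 after. All 3 treated Atg7KO libraries thus lay below the untreated ones, although the lowest untreated and the highest treated library were less than 1 FPKM apart. The highest value was that of untreated replicate 1. The log2 fold change of -0.43 ± 0.226 did not pass (adjusted p = 0.169), and without that replicate it was -0.11 and passed (edgeR adjusted p = 0.00295). The difference between the lines' responses was -0.92 ± 0.240 with all libraries (adjusted p = 0.0134, not past 0.01) and -0.59 without untreated Atg7KO replicate 1 (adjusted p = 2.73e-16).

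CDKN2D, on chromosome 19 (10566462–10569059, minus strand), was at 8.40, 10.3 and 8.99 FPKM in untreated WT and at 11.3, 11.4 and 11.4 after H2O2. In Atg7KO it was at 10.2, 7.77 and 6.94 before and 6.96, 4.66 and 6.56 after. The WT groups did not overlap and the Atg7KO groups did. Neither response passed (log2 fold change of 0.29 in WT, edgeR adjusted p = 0.0116, and -0.46 in Atg7KO, adjusted p = 0.118). The responses differed by -0.75, which did not pass (adjusted p = 0.0293), and by -0.57 without untreated Atg7KO replicate 1, which did (adjusted p = 0.00421).

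**Figure D3:**
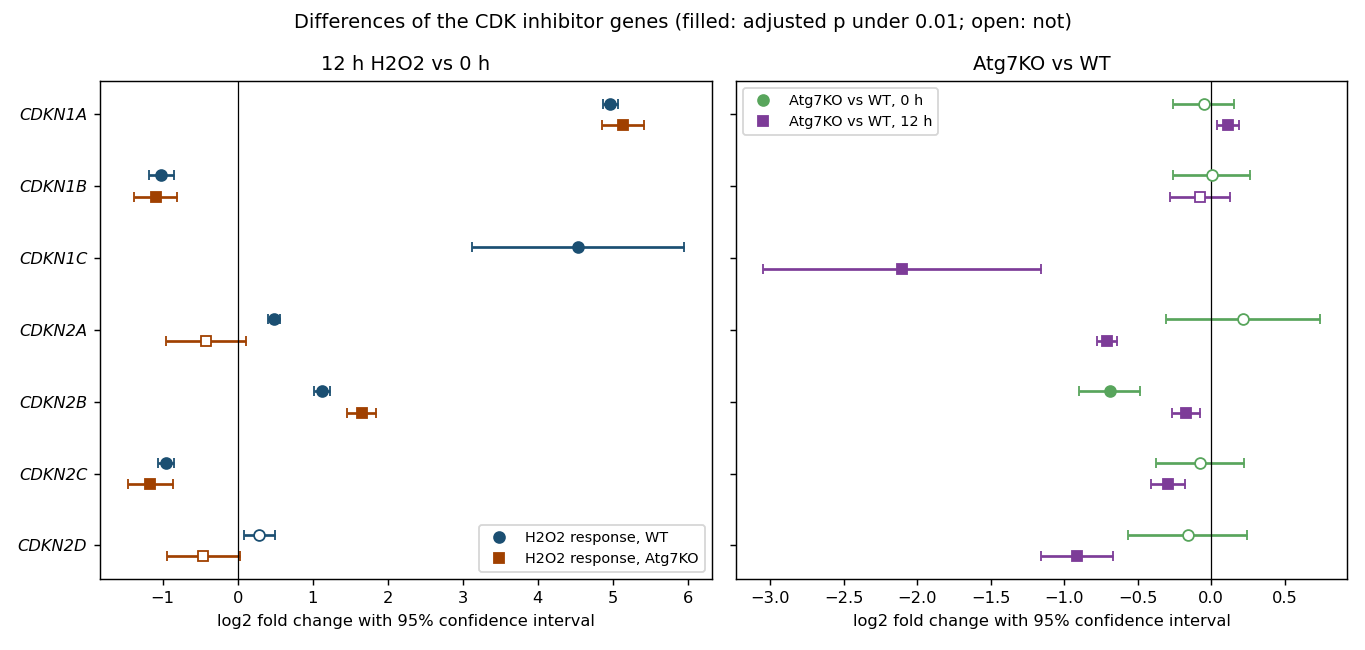
Log2 fold changes (horizontal axes) with 95% confidence intervals for treated against untreated cells (left) and Atg7KO against WT cells (right), by edgeR. Filled symbols passed at an adjusted p under 0.01. CDKN1C has no symbol where it was not tested, and elsewhere it was tested only because of its level in treated WT. CDKN1A stands at 4.96 and 5.14 in the left panel and no other symbol there reaches 5.

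The second comparison asked how Atg7KO differed from WT at the same time. Without H2O2, 1 of the 6 members tested passed, where 7.7% of 15357 genes did (3.28% as lower). This was CDKN2B, lower by -0.69 ± 0.0878 on the log2 scale (7.01 against 11.3 FPKM, edgeR adjusted p = 0.00243). The 3 Atg7KO libraries all lay below the 3 WT libraries. The adjusted p was between 0.0126 and 0.0234 when any 1 of the other 5 libraries was left out and 2.85e-16 without untreated Atg7KO replicate 1. CDKN2C differed by -0.08 (adjusted p = 0.709) with all libraries and by -0.21 without that replicate (edgeR adjusted p = 0.000210). Without that replicate 2 of 6 members passed, where 5734 of 15848 genes did. CDKN2A was 0.21 higher with all libraries (adjusted p = 0.532) and 0.10 lower without untreated Atg7KO replicate 1 (log2 difference of -0.10, adjusted p = 0.0377).

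After H2O2, 5 of the 6 members other than CDKN1C passed between the lines, where 55.6% of 15909 genes did (27.7% higher and 27.9% lower). CDKN2A was 82.6 ± 2.73 FPKM in Atg7KO against 134 ± 1.84 in WT, a log2 difference of -0.71 ± 0.0340 (edgeR adjusted p = 6.50e-18). CDKN2D was 6.06 ± 1.23 against 11.4 ± 0.0182 FPKM (-0.91 ± 0.119, adjusted p = 6.55e-08). CDKN2A and CDKN2D passed in 16 of 16 alternatives. CDKN2C (-0.29, adjusted p = 3.79e-05) was lower as well and passed in 15 of 16 alternatives, and CDKN2B (-0.17, adjusted p = 0.00182) in 9 of 16. None of these 4 genes had overlapping groups. The share of all genes without overlap was not counted, so this adds no support to the calls. For CDKN1C, treated WT had 4.40 times the summed count per read of treated Atg7KO (exact 95% interval 2.31 to 9.06, counting error only).

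CDKN1A was the 1 member that was higher in treated Atg7KO (1689 ± 25.7 against 1550 ± 114 FPKM, n = 3), and its groups overlapped. The difference of 0.12 ± 0.0367 passed (edgeR adjusted p = 0.00824) but did so in 6 of 16 alternatives, over which it ranged from 0.07 to 0.22. CDKN1B did not pass (-0.08, adjusted p = 0.510, 95% interval -0.28 to 0.13). The comparisons with WT share libraries with those of the H2O2 responses, so the values of a gene across them are not independent.

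The position of the genes was looked at next, because neighbours on a chromosome can move together. Of the 40 genes tested on either side of CDKN2D (20 each side, 1.41 Mb), 34 were lower and 1 higher in treated Atg7KO than in treated WT cells, with a median log2 fold change of -0.72. CDKN2D itself stood at -0.91. Over all genes tested in this comparison, 27.9% passed as lower and 27.7% as higher. At 10 genes each side, 18 of 20 were lower (median -0.61). The nearest genes on either side were KRI1 (-0.31, edgeR adjusted p = 0.00144) and AP1M2 (-1.28, adjusted p = 3.16e-05). Without H2O2, 5 of 40 neighbours passed as lower and none as higher, with a median of -0.30, where 3.28% of all genes passed as lower. These untreated values include Atg7KO replicate 1 and were not computed without it. Over chromosome 19, 491 of 1148 genes were lower after H2O2 (42.8%, median -0.26) and 174 higher.

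Around CDKN2A the 40 neighbours (13.5 Mb) had a median of -0.14 between the treated lines, with 12 lower and 6 higher. Over all genes tested, 27.9% were lower and 27.7% higher there. Over chromosome 9, which holds CDKN2A and CDKN2B, 330 of 677 genes were lower in treated Atg7KO cells (48.7%, median -0.25) and 94 higher. MTAP, the gene beside CDKN2A that encodes a methionine salvage enzyme, was higher (0.42 ± 0.0416, edgeR adjusted p = 2.85e-10), the opposite direction. CDKN2B-AS1, which lies antisense to CDKN2B and reaches into the CDKN2A locus, had 55 to 209 counts per library. It fell with H2O2 in WT (-0.75 ± 0.169, edgeR adjusted p = 0.000165), where CDKN2B and CDKN2A rose. In Atg7KO it did not pass (-0.28, edgeR adjusted p = 0.339). The strand setting of the counting is not given, so reads of the shared stretches cannot be told apart here either. The neighbours of CDKN2C had a median of 0.23 with 18 higher and 5 lower, while CDKN2C was lower. The median over all genes was -0.0022, and medians around CDKN1A, CDKN1B and CDKN1C were 0.09, 0.15 and -0.03. Between untreated lines, where CDKN2B was the member that passed, 70 of 647 genes of chromosome 9 were lower and 11 higher. That is 10.8% as lower against 3.28% of all genes, with a median of -0.32. The 40 neighbours of CDKN2B had a median of -0.23. Untreated Atg7KO replicate 1 is included in these values, which were not computed without it. The part of the chromosomal surroundings in the levels of CDKN2A, CDKN2B and CDKN2D was not tested.

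**Figure D4:**
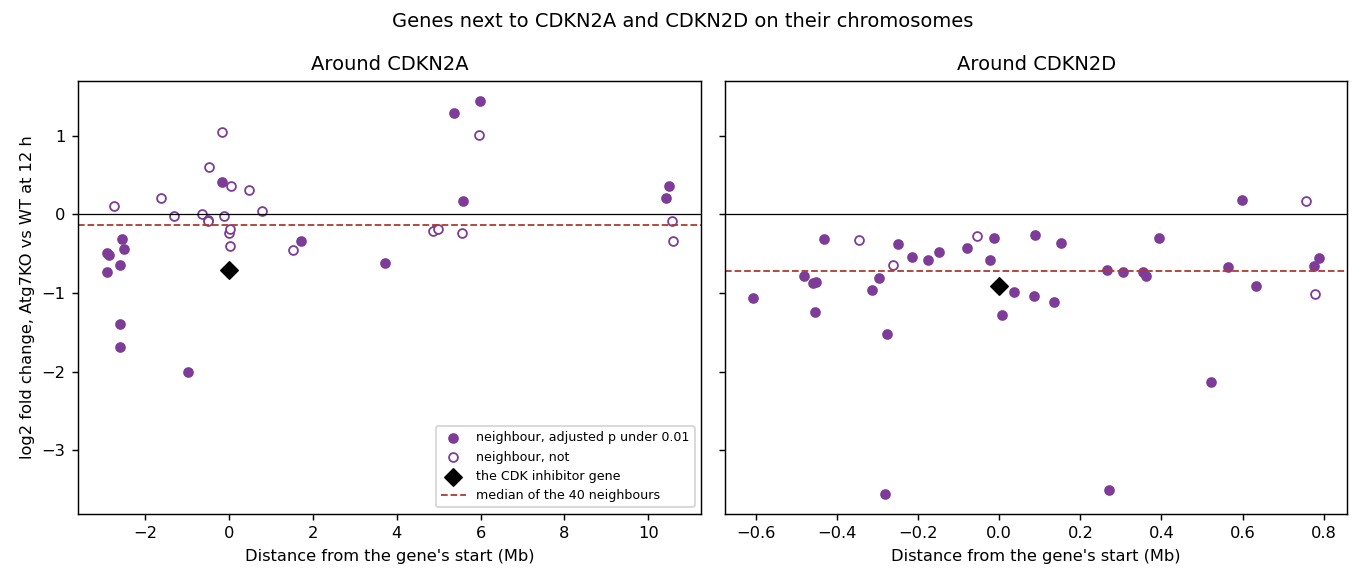
Log2 fold change of treated Atg7KO against treated WT (vertical axis) for genes around CDKN2A and CDKN2D. Points are the 20 tested genes on each side, with other CDK inhibitors left out. The horizontal axis is the distance between start coordinates in Mb. Filled points passed at an adjusted p under 0.01, diamonds mark the CDK inhibitors and dashed lines the medians, -0.14 around CDKN2A and -0.72 around CDKN2D.

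The genes that act with the CDK inhibitors were described from lists of general knowledge. Over all genes tested, 61% passed in the WT response (30.9% higher and 30.1% lower) and 26% in the Atg7KO response (13.6% and 12.4%). Without untreated Atg7KO replicate 1, 9341 of 16002 genes passed in the Atg7KO response. Between treated lines 55.6% passed. The list counts below are to be read beside these shares. Values for Atg7KO include untreated replicate 1, and calls of named genes that changed without it are given beside them. Of 18 p53 pathway genes, 16 rose with H2O2 in each line, with medians of 2.71 in WT and 2.79 in Atg7KO on the log2 scale (16 and a median of 2.95 in Atg7KO without untreated replicate 1). BTG2, an antiproliferative gene, rose by 6.05 on that scale in WT (edgeR adjusted p = 7.83e-28) and by 6.60 in Atg7KO (adjusted p = 2.97e-06). MDM2, a ubiquitin ligase, went from 5.83 ± 0.282 to 66.3 ± 3.42 FPKM in WT and from 4.80 ± 0.203 to 100.5 ± 3.18 in Atg7KO (SD, n = 3). MDM4 fell in WT (-0.34) and did not pass in Atg7KO (-0.06). Between the lines at 12 h, 10 of the 18 were higher and 4 lower in Atg7KO, with GADD45A (-1.94) and BBC3 (-0.74) among the lower ones.

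The partners that the inhibitors act on did not move as a block. Of 8 cyclin genes, CCND2 had 0 to 3 counts and was not tested. The G1 cyclins CCND1, CCND3, CCNE1 and CCNE2 rose in both lines (from 0.66 to 1.48 in WT and 0.73 to 1.57 in Atg7KO on the log2 scale) and the S phase and mitotic cyclins CCNA2, CCNB1 and CCNB2 fell (from -1.21 to -1.55 in WT and -1.72 to -3.35 in Atg7KO). CCND1 went from 40.5 ± 1.62 to 113 ± 6.86 FPKM in WT and from 46.0 ± 7.02 to 137 ± 1.78 in Atg7KO. CCNB1 went from 83.4 ± 3.94 to 28.5 ± 2.18 FPKM in WT and from 105 ± 23.4 to 10.3 ± 0.344 in Atg7KO. The difference of the responses passed for CCNA2 (-0.50), CCNB1 (-1.80) and CCNB2 (-1.29), and these calls held without untreated Atg7KO replicate 1.

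Of the 4 kinases, CDK1 fell in both lines (-0.64 and -0.91) and CDK2 fell in WT (-0.26). CDK4 and CDK6, the targets of the INK4 proteins, did not pass in either line with all libraries and stood at 27.2 ± 0.681 and 24.2 ± 1.22 FPKM in treated WT. Without untreated Atg7KO replicate 1 both passed in Atg7KO, CDK4 as lower (-0.33) and CDK6 as higher (0.28). In treated Atg7KO cells CDK4 was lower than in WT (-0.35) and CDK6 higher (0.20), although CDK6 was at -0.02 after correction for gene length and did not pass.

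Of 8 genes of mitosis and proliferation, 8 fell in WT (median -1.55) and 6 in Atg7KO (median -2.35). PLK1, a mitotic kinase, fell in both (log2 fold change of -1.59 in WT and -3.68 in Atg7KO). MKI67 (-0.95) and CCNF (-0.09) did not pass in Atg7KO. Without untreated replicate 1, MKI67 was at -1.28 and passed, so that 7 of 8 fell, and CCNF was at -0.14 and did not pass. Of 10 E2F target and S phase genes, 5 rose and 1 fell in WT, and 3 rose and 1 fell in Atg7KO (4 and 3 without untreated replicate 1). In WT, 6 of 10 was near the 61% of all genes. PCNA, the sliding clamp of DNA polymerase and a partner of p21, rose in both (1.64 and 1.30, or 1.60 without that replicate). Of 8 pocket protein and E2F genes, 4 rose and 3 fell in WT, among them RB1 (0.22) and RBL2 (-1.35), and 2 rose and 2 fell in Atg7KO (3 and 3 without that replicate).

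**Figure D5:**
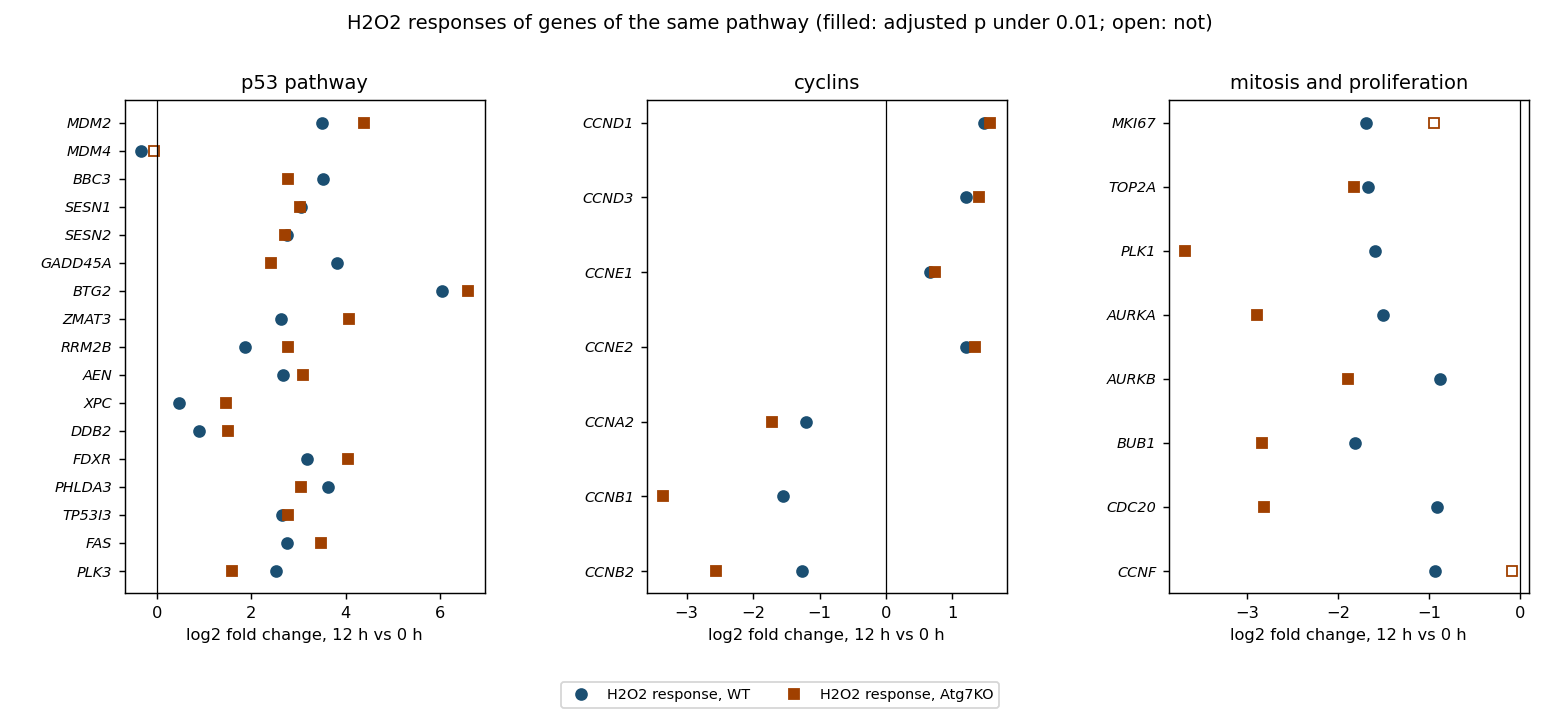
Log2 fold change from 0 h to 12 h with H2O2 (horizontal axes) of genes tested in 3 lists, in WT (circles) and Atg7KO cells (squares). Filled symbols passed at an adjusted p under 0.01. In the p53 pathway list 16 genes lie right of 0 in both lines, and the 8 mitotic genes lie left of 0.

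Of 9 genes that take part in the degradation of CDK inhibitors, 3 rose and 3 fell in WT and 1 rose and 3 fell in Atg7KO (4 and 4 without untreated replicate 1). DTL, of the ligase that degrades p21, rose in both lines (0.85 and 0.70). SKP2, the F-box protein that marks p27, fell in WT (-0.48) and did not pass in Atg7KO (0.34, or 0.39 and passed without that replicate), and the responses differed by 0.82 (edgeR interaction, adjusted p = 0.000311). CKS1B, its cofactor, rose in WT (0.16, adjusted p = 0.00971) and fell in Atg7KO (-0.97, adjusted p = 0.00950), both close to the threshold (-0.68 and adjusted p = 6.90e-27 in Atg7KO without that replicate). Of 13 transcription regulators, 5 rose and 4 fell in WT, and 3 rose and 1 fell in Atg7KO (7 and 3 without untreated replicate 1). In WT, the 6 of 9 degradation genes and 9 of 13 regulators that passed were near the 61% of all genes. MYC, a repressor of CDKN1A and CDKN2B, rose from 22.0 ± 0.855 to 47.7 ± 2.84 FPKM in WT (log2 fold change 1.11) and did not pass in Atg7KO (13.7 ± 1.19 and 16.0 ± 0.638 FPKM). KLF4, an activator of CDKN1A, rose in WT (3.76) and in Atg7KO passed only without that replicate (1.53, against 1.20 with it), and KLF6 rose in both (1.36 and 0.89). CBX7, a Polycomb protein that represses the CDKN2A locus, fell in both (-1.61 and -1.16). SMAD3 fell in WT (-0.91) and, without that replicate, in Atg7KO (-0.61, against -0.47 with it, not passed).

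The genes whose levels followed each inhibitor most closely over the 12 libraries were found by Pearson's r among 11272 protein-coding genes, as a description. The 12 libraries fall into 4 groups, so these r values mostly compare group means. CDKN1A was followed most closely by SESN1 (r = 0.998), a p53 target, and TMEM64 (0.997). CDKN2B was followed by SEC61A1 (0.996), of the translocon of the endoplasmic reticulum, and NSG1 (0.996). CDKN2C was followed by LACTB (0.994) and SPC24 (0.993), a kinetochore gene, and CDKN1B by COG4 (0.989) and LARP7 (0.987). For CDKN1C the closest were ANGPTL2 (0.984) and HSPA6 (0.980). CDKN1C was included only through treated WT, with 14 to 20 counts per library there and 0 to 4 in the other groups. Its r values therefore support nothing. CDKN2A was followed by PSMB7 (0.983), which lies on chromosome 9 as well, and RPL22 (0.983). CDKN2D, with the lowest values, was followed by EIF3G (0.947) and MRPL4 (0.935). Both lie on chromosome 19 among the neighbours of CDKN2D, as given above.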

How the data were processed

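Gene counts and FPKM values for 12 libraries were used as deposited. Per the submitters' processing notes, the authors aligned reads with HISAT2 2.0.5 to GRCh38 and counted reads per gene with featureCounts 1.5.0-p3. The strand setting is not given in the sources used here. The FPKM values deposited by the authors equal count over length and library total times a factor between 0.949 and 1.02 per library. Counts were tested with edgeR 4.0.16 (R 4.3.3): filterByExpr with a minimum count of 10, TMM scaling, the robust quasi-likelihood fit and Benjamini-Hochberg adjustment over all genes tested, with calls at an adjusted p under 0.01. A fit held the 6 libraries of the groups compared, and the interaction fit held 12. limma 3.58.1 and DESeq2 1.42.0 served as alternatives, as did other scalings, filters, a gene length correction, a replicate block and the omission of each library. The edgeR test in its main settings was tried first on simulated counts, and the alternatives were not. The simulated spread was near that of the comparisons without untreated Atg7KO libraries. It was below that of the fits that used them, so those fits were not checked at their own spread. Genes named were the 7 members, listed pathway genes, the 20 tested genes on each side of a member with MTAP and CDKN2B-AS1, the 2 closest by Pearson's r per member, and, named for its overlap, DINOL. The members, lists and tests were chosen with earlier results of these data known. A replicate is a library, and depth (15602183–17659496 counts) limits mainly CDKN1C. Some genes of the lists and neighbours are not reported here. Promoter sequences came from RefSeq tables (GRCh38.p14).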

Additional observations from a re-analysis of the deposited data

Results flagged for a closer look

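The response to H2O2 differed between the lines by the interaction test for CDKN2B, with a larger rise in Atg7KO (difference of 0.53 on the log2 scale, edgeR adjusted p = 0.00137). For CDKN1C the fitted difference was -3.74. It rests on 0 to 20 counts per library, the gene entered the fit only through treated WT, where it is high, and it passed in 5 of 20 alternatives, so no differing response is read from it. For CDKN2A every treated library lay above every untreated one in WT and below every untreated one in Atg7KO. The test of that difference (-0.92, edgeR adjusted p = 0.0134) did not pass at 0.01 with all libraries, and it passed in 6 of 21 alternatives, among them the one without untreated Atg7KO replicate 1. Groups of 3 libraries were too small to test single libraries for standing apart within a gene.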

How the results depend on the processing

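The number of members that passed, CDKN1C included although it was tested only through treated WT, was 6 in the WT response (5 to 7 under the other settings), 4 in the Atg7KO response (4 in all 10 other settings and 4 to 5 with a library left out) and 6 between the treated lines, where the fit with all 12 libraries gave 3 and leaving out a library gave 4 to 6. Between untreated lines it was 1, 0 with a replicate block, and 0 to 2 with a library left out. For the interaction it was 2, 3 without a filter on low counts, 1 with the filter of at least 10 counts in every library, 1 with a replicate block and 1 to 4 with a library left out, the 4 without untreated Atg7KO replicate 1. The counts of calls over all genes moved with that library as well, from 4025 to 9341 in the Atg7KO response, from 1182 to 5734 between untreated lines and from 2366 to 5974 in the interaction. Deviations of same-numbered replicates from the means of their own groups correlated between -0.04 and 0.1, and replicates were not paired. The replicate block lost CDKN2B between untreated lines (adjusted p = 0.0164) and CDKN1C in the interaction (0.0147) and brought CDKN2D past the threshold in WT (0.00951). Over 560 values of single members under alternatives, 490 kept direction and side of the threshold, 40 lost a call, 17 gained it and 13 changed sign, none of them called in either fit. CDKN1B changed sign between treated lines with the gene length correction (0.045) and between untreated lines with at least 10 counts in every library (-0.0012), the replicate block (-0.0014), the length correction (-0.11) and limma on log2(FPKM + 0.1) (-0.00018), and in the interaction with the length correction (0.15). With a library left out, values spanned 0 for CDKN1B between treated lines (-0.17 to 0.047), for CDKN1B (-0.098 to 0.063), CDKN2A (-0.10 to 0.37) and CDKN2C (-0.21 to 0.0062) between untreated lines, and for CDKN1B in the interaction (-0.16 to 0.057). Between treated lines the length correction turned CDK6 to -0.015 and MKI67 to -0.10. Of the pathway genes that passed, 109 of 1934 values lost the call under other settings and 179 of 1332 with a library left out. Medians of neighbours taken over 10 in place of 20 genes on each side moved by more than the spread between replicates in 19 of 28 cases. The cause of these changes was not tested.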
